A study of Mus musculus with 24 samples.

Results

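The cytosolic ribosomal protein genes encode the proteins of the cytoplasmic ribosome, and they were examined here as a housekeeping set in mouse embryonic stem cells before and after removal or catalytic inactivation of Polycomb repressive complex 1 (PRC1), the complex that places ubiquitin on histone H2A. Members were the gene table's rows whose symbol was Rpl or Rps followed by a number, with or without a final a, x or y, together with Rpsa, Rplp0, Rplp1 and Rplp2. The rule used names only. It found 66 genes among the 20633 rows of the table, of which 27 encode proteins of the small (40S) subunit and 39 proteins of the large (60S) subunit. All 66 had at least 10 reads in at least 3 libraries and were tested, among 16940 rows that met this limit.

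Total RNA depleted of ribosomal RNA was sequenced from 2 lines derived from male E14 embryonic stem cells. In PRC1CKO, Ring1a was deleted (Ring1a-/-), Ring1b was flanked by loxP sites (Ring1b fl/fl), and Cre fused to the ERT2 receptor was expressed from the Rosa26 locus, so 4-hydroxytamoxifen (OHT) removed the remaining catalytic subunit. In PRC1CPM, both alleles of Ring1a carried catalytic mutations, and OHT switched Ring1b fl/fl from the wild-type to a catalytically dead form through the same Rosa26::ERT2-Cre. Each line was a single clone, and the untreated controls already carried the Ring1a changes and the Cre. Cells were left untreated or given 800 nM OHT for 72 h, with 3 biological replicates in each of the 4 groups and a fixed addition of Drosophila cells before RNA extraction.

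The ribosome is assembled in the nucleolus from ribosomal RNA and a set of proteins that are needed in near equal numbers. The messenger RNAs of these proteins typically begin with a run of pyrimidines, the 5′ terminal oligopyrimidine (TOP) tract, through which mTOR signalling and the RNA-binding protein LARP1 control their translation. Ribosomal protein genes are transcribed at high rates in embryonic stem cells, and mammalian genomes hold many processed pseudogenes made from their transcripts. Several of the genes also carry small nucleolar RNAs (snoRNAs), guides for ribosomal RNA modification, in their introns.

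The run of pyrimidines is shown first because it is the sequence feature that the members most visibly share and that the naming rule did not use. A RefSeq promoter window of the mm10 assembly, with its start within 50 bases of the table's row, was matched for 46 of the 66 members and for 13313 genes of the table. The stretches below are 30 bases long, written 5′ to 3′ on the strand of the gene, with the longest pyrimidine run in capitals. The first 5 hold the longest runs, and the last 3 belong to members whose values are described further on.
Rpl7a (chr2:26910788-26910817, plus strand): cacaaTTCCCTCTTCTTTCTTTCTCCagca
Rpl27a (chr7:109519186-109519215, plus strand): gtgagCTCCTCCCTTTTCCCTTTCTgccac
Rpl35 (chr2:39005115-39005144, minus strand): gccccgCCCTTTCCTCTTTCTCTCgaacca
Rpl11 (chr4:136053358-136053387, minus strand): ccggaagTCTCCCTCTCTCTTCCTgttctc
Rpl15 (chr14:18270968-18270997, minus strand): gagaaagCCTTCTTCCTTTCCTCTggcggc
Rpl4 (chr9:64173361-64173390, plus strand): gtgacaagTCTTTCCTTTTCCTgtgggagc
Rps12 (chr10:23787182-23787211, minus strand): ccaccgccggCCTTTTCCCCTgccgccgcc
Rpl10a (chr17:28328450-28328479, plus strand): cgcgtggtggcgCCCCCCCagcggccgcaa

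Between 25 bases before and 40 bases after the annotated start, 34 of the 46 members (73.9%) had a run of at least 8 pyrimidines on the sense strand, against 22.0% of all 13313 genes. The longest run had a median of 10 bases in members and 5 bases in all genes. Rpl7a held the longest member run, at 21 bases, and Rpl10a had a run of 7 bases. The annotated start need not be the base at which transcription begins, so a run is a description of these letters.

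**Figure D1:**
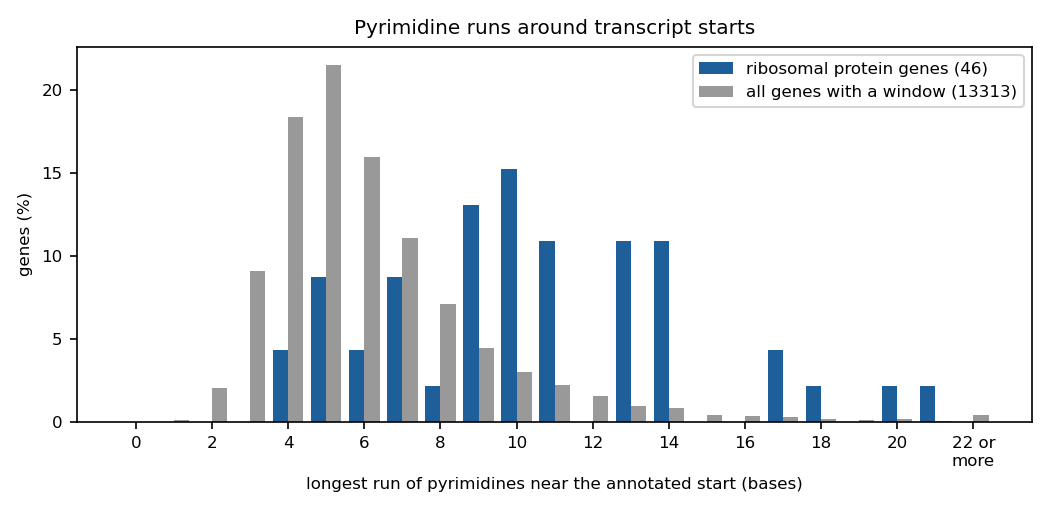
Longest pyrimidine run between 25 bases before and 40 bases after the annotated start (horizontal axis, bases) against the share of genes (vertical axis, %), for 46 ribosomal protein genes (blue) and 13313 genes with a window (grey). Members lie mostly at 9 bases and above, with a median of 10 bases against 5 bases for all genes.

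In the whole window, from 250 bases before to 50 after the start and on both strands, the ETS-type motif CCGGAAG was present in 20 of the 46 members (43.5%) and in 13.5% of all genes. The YY1-type motif AAGATGG was present in 8 members (17.4%) and in 6.69% of all genes. The E-box CACGTG was found in 4 members (8.70%) and in 8.74% of all genes, and TATAAA in 4 members (8.70%) and in 10.4% of all genes. The median GC content was 58.7% in members and 58.3% in all genes, and the median number of CpG in the window was 21 in members and 16 in all genes.

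Measurements were the deposited normalised read counts, which are reads over each gene body, introns included, divided by a factor from the Drosophila spike-in. The libraries held between 14668159 and 27016156 reads on genes. The members took 1.07% ± 0.06 of the reads on genes in untreated PRC1CKO and 0.94% ± 0.04 after OHT (SD, n = 3 each). In PRC1CPM the shares were 1.11% ± 0.02 and 1.03% ± 0.07 (SD, n = 3 each). Each member was read at least 208 times and at most 20701 times in a library. In level, 64 of the 66 members lay above the median gene tested, and 22 lay in the top 10%.

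In 3 of the 4 groups the median member varied more between libraries on the spike-in scale than relative to all genes, and in OHT-treated PRC1CKO its SD was 0.0550 and 0.0551. The untreated PRC1CKO replicate 1 stood apart: its spike-in factor was 0.671, against 1.30 and 1.18 in replicates 2 and 3. The median member had a log2 level of 11.48 in that library and of 10.79 and 10.83 in the other 2. The median of all genes tested moved with it, at 9.21 against 8.60 and 8.68, so most PRC1CKO values of single members and groups below are also given without it. After OHT the PRC1CKO medians of members were 11.05, 10.94 and 11.02. In PRC1CPM they were 11.40, 11.01 and 11.13 untreated and 11.34, 10.77 and 11.34 after OHT, where replicate 2 was the low library.

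**Figure D2:**
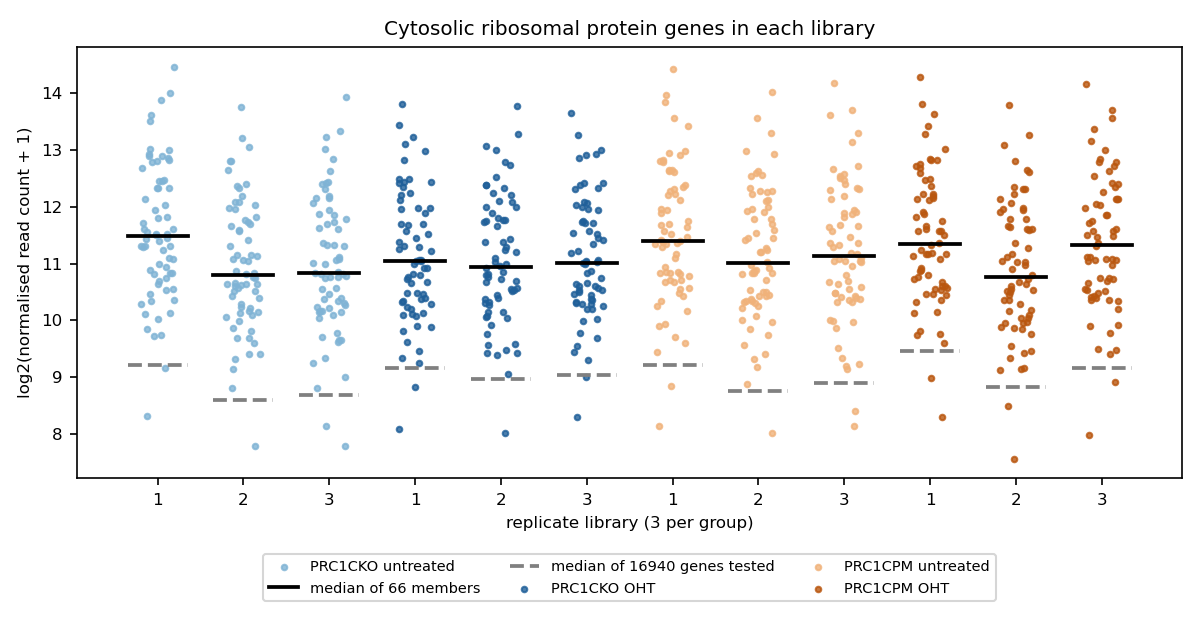
Level of the 66 ribosomal protein genes in each of 12 libraries, as log2(normalised read count + 1); each point is a gene, black bars are the median member and dashed grey bars the median of 16940 genes tested. The bars of untreated PRC1CKO replicate 1 (members 11.48, all genes 9.21) lie above those of replicates 2 and 3, and all genes move with the members.

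The genes that the lines were made to change do not check the labels here, because whole-body counts include the parts that were left in place. Rnf2, which encodes RING1B, had normalised read counts of 1756, 1436 and 1385 in untreated PRC1CKO and of 1489, 1565 and 1585 after OHT. In PRC1CPM Rnf2 was at 1850, 1659 and 1578 untreated and at 1724, 1295 and 1513 after OHT. Ring1, which encodes RING1A, was at 227 ± 76.3 and 254 ± 26.4 in PRC1CKO and at 162 ± 32.2 and 140 ± 25.8 in PRC1CPM, untreated and OHT respectively (SD, n = 3 each). The groups of neither gene separated by treatment.

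Pluripotency genes were detected in every library, and 7 of the 8 markers listed were in the table. Nanog, a core pluripotency factor, was at 5326 ± 990 in untreated PRC1CKO and 4542 ± 437 after OHT, and at 4293 ± 287 and 5658 ± 1275 in PRC1CPM (SD, n = 3 each). The pluripotency factors Sox2 and Utf1 fell by 0.89 and 0.79 on the log2 scale after OHT in PRC1CKO (limma adjusted p = 0.00051 and 0.00643). The core factor Pou5f1 was at -0.56 in PRC1CKO and -0.25 in PRC1CPM and did not pass (limma adjusted p = 0.0778 and 0.630), and neither did Zfp42, Esrrb or Tdgf1. None of the 7 passed in PRC1CPM. Without untreated replicate 2, Pou5f1 (-0.75) and Tdgf1 (-0.89) passed in PRC1CKO and Tdgf1 (-0.79) in PRC1CPM. Of 6 primitive endoderm markers, 4 rose in PRC1CKO and 6 in PRC1CPM, where 16.5% and 13.1% of all genes tested were called higher. The transcription factor Gata6, 1 of these markers, rose by 2.96 (limma adjusted p = 1.2e-10) and 2.26 (limma adjusted p = 2.91e-07). Gata4, Foxa2 and Sox17, further endoderm transcription factors, rose in both lines, by 2.14, 2.80 and 1.39 in PRC1CKO and by 1.63, 2.87 and 1.35 in PRC1CPM. Sox17 lost its call in either line with some libraries left out (limma adjusted p up to 0.226 in PRC1CKO and 0.157 in PRC1CPM). Sox7 and the adaptor gene Dab2 passed in PRC1CPM, at 2.62 and 0.80, and were at 1.09 and 0.50 in PRC1CKO, where both passed without untreated replicate 1 (1.42 and 0.85), and the interaction passed for neither (limma). Dab2 in turn did not pass in PRC1CPM without untreated replicate 3 (0.60), OHT replicate 1 (0.67) or OHT replicate 3 (0.84). The summed normalised read count of the 6 endoderm markers went from 797 ± 406 to 2495 ± 419 in PRC1CKO and from 542 ± 64.9 to 1401 ± 264 in PRC1CPM (SD, n = 3 each). The 6 fibroblast markers, of which Col1a1 was the most abundant, summed to 15420 and 16061 in replicate 1 of untreated and OHT-treated PRC1CPM and to between 2283 and 6939 in the other 10 libraries. Among them Thy1, a surface glycoprotein, rose by 0.65 and Postn, a matrix protein, fell by 2.13 in PRC1CKO (limma adjusted p = 0.0388 and 0.0193). Thy1 did not pass with any PRC1CKO library other than untreated replicate 1 left out, and Postn did not pass without untreated replicate 1 (-1.42) or OHT replicate 3 (-1.25). Other collagen and receptor genes of the list passed with 1 library left out. Without untreated replicate 1, Pdgfrb passed in PRC1CKO (0.87) and Pdgfrb (1.04) and Col1a1 (1.21) in PRC1CPM. Col3a1 passed in PRC1CKO without untreated replicate 2 (-1.23), and Col1a2 in PRC1CPM with any of 3 libraries left out (-1.19 to -1.06). Between the lines, Sox7 was lower in untreated PRC1CPM by 2.26 (-2.26, limma adjusted p = 0.00051) and Gata6 lower in OHT-treated PRC1CPM by 1.78 (-1.78, limma adjusted p = 0.00039). Col1a2 was higher in untreated PRC1CPM by 1.38 (limma adjusted p = 0.0081) and Col1a1 in OHT-treated PRC1CPM by 1.44 (limma adjusted p = 0.020). Without replicate 1 of PRC1CPM, the library with the high sum, these were 0.84 and 0.87 and did not pass, and Col1a2 did not pass without PRC1CKO replicate 3 either (1.30). Gata6 also passed between untreated lines with any of 3 libraries left out (-1.48 to -1.11), and Col1a1 likewise (1.31 to 1.56). Postn was the only marker of the 3 lists at 0 in any library, and its highest value was 46.0. The part of these cell states in the ribosomal protein values was not tested. In bulk RNA, fewer cells of a type and less RNA per cell cannot be told apart.

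The first question was whether ribosomal protein genes changed after the loss of PRC1 in PRC1CKO or of its catalytic activity in PRC1CPM. A gene was called when the adjusted p of limma's moderated test was under 0.05 and the fold was over 1.5. None of the 66 members was called in PRC1CKO, where 19.5% of all genes tested were, and none in PRC1CPM, where 14.5% were. At an unadjusted p under 0.05 the count was likewise 0 of 66 in both comparisons with limma, edgeR and DESeq2, against 28.1%, 27.8% and 28.2% of all genes in PRC1CKO and 22.9%, 23% and 23.2% in PRC1CPM. The smallest adjusted p of a member was 0.34 in PRC1CKO and 0.44 in PRC1CPM.

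On the deposited scale the median member differed by -0.09 (log2, OHT minus untreated) in PRC1CKO, where the median of all genes tested was 0.12. In PRC1CPM the median member was at -0.07 and the median of all genes at 0.10. The sign of the member median was not stable: without untreated PRC1CKO replicate 1 it was 0.10 in PRC1CKO, without OHT PRC1CPM replicate 2 it was 0.10 in PRC1CPM, and with spike-in factors lacking the correction from genomic DNA sequencing it was 0.23 in PRC1CPM and -0.24 in PRC1CKO. Of the 66 differences 23 were above 0 in PRC1CKO and 20 in PRC1CPM, against 55 and 59 without those same libraries, so the sign of a single member's difference often rests on 1 library. Members ranged from -0.31 to 0.26 in PRC1CKO and from -0.30 to 0.31 in PRC1CPM, with an SD across members of 0.15 and 0.12, while all genes had SDs of 0.92 and 0.75.

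The absence of calls has to be read with its precision. The standard error of a member's log2 difference had a median of 0.22. The 95% interval lay within 1.5-fold either way for 35 members in PRC1CKO and 45 in PRC1CPM, and the widest bounds were -0.75 and 0.78 in PRC1CKO and -0.76 and 0.72 in PRC1CPM. For the other members the interval reached past 1.5-fold on at least 1 side.

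**Figure D3:**
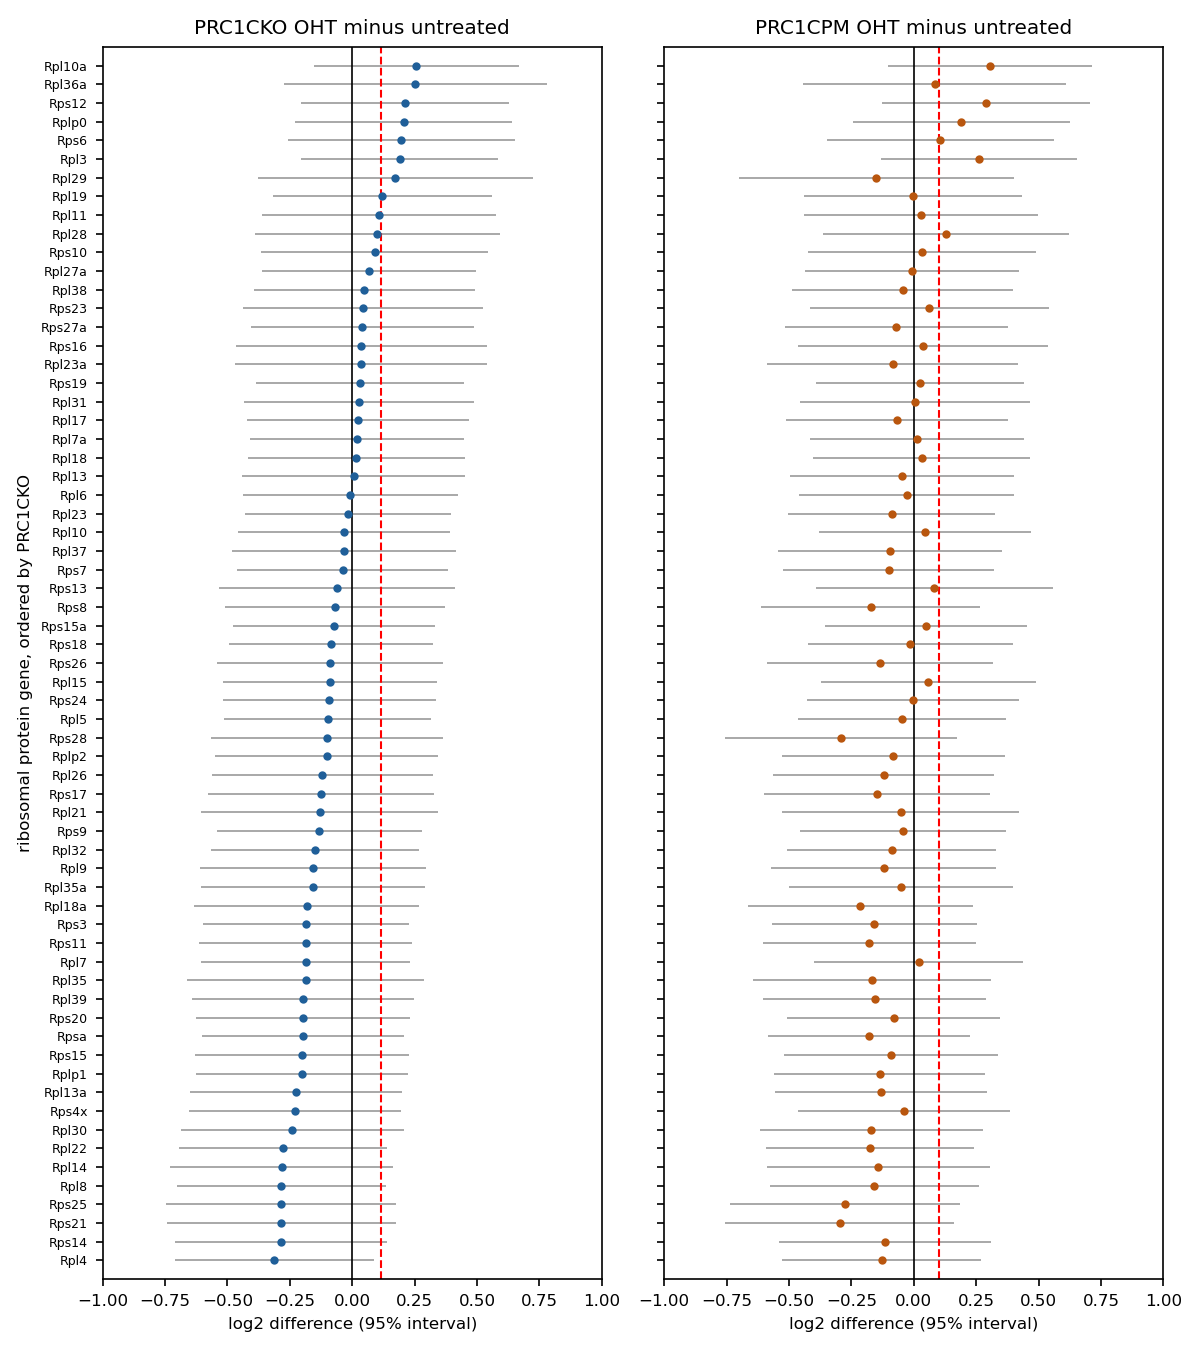
Log2 difference (OHT minus untreated) of 65 of the 66 ribosomal protein genes in PRC1CKO (left) and PRC1CPM (right), with 95% intervals from limma (n = 3 libraries a group); both panels follow the PRC1CKO order, and dashed red lines mark the median of all genes tested (0.12 and 0.10). Every interval drawn includes 0, and most points lie left of the red line.

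The members with the lowest log2 differences in PRC1CKO were Rpl4, Rps14 and Rps21. Rpl4 (mm10 chr9:64173387-64178562), a large-subunit protein that reaches into the peptide exit tunnel and whose pyrimidine run of 14 bases is printed above, had normalised read counts of 22717, 13835 and 15735 in untreated PRC1CKO and of 14307, 14023 and 12893 after OHT. In PRC1CPM it was at 21956, 16654 and 18646 untreated and at 19982, 14275 and 18305 after OHT. The groups overlapped in both lines, with differences of -0.31 ± 0.20 (SE, limma adjusted p = 0.34) and -0.13 ± 0.20 (SE, limma adjusted p = 0.83). These low places in PRC1CKO rested on untreated replicate 1: without it Rpl4 was at -0.10, Rps14 at -0.02 and Rps21 at -0.04, and the lowest 3 were Rpl30, Rpl4 and Rpl7.

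Rps21, a small protein of the 40S subunit, was low in both lines. Its counts were 2799, 1571 and 1799 untreated and 1781, 1649 and 1489 after OHT in PRC1CKO. They were 2840, 1834 and 2585 untreated and 2314, 1454 and 2158 after OHT in PRC1CPM. The differences were -0.28 ± 0.23 and -0.30 ± 0.23 (SE), and neither passed (limma adjusted p = 0.48 and 0.54). Rps28 and Rps25, also of the small subunit, completed the lowest 3 in PRC1CPM, at -0.29 and -0.27 (-0.12 and -0.07 without OHT replicate 2, where Rps21 was at -0.09), and stood at -0.10 and -0.28 in PRC1CKO, or at 0.17 and -0.0052 without untreated replicate 1. Rps14, a platform protein of the small subunit, was at -0.29 in PRC1CKO and -0.11 in PRC1CPM.

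At the other end, Rpl10a (mm10 chr17:28328471-28331033), a protein of the L1 stalk of the large subunit, had the highest difference in both lines with all libraries kept. Without untreated PRC1CKO replicate 1, Rplp0 (0.48), Rpl36a (0.48) and Rps6 (0.38) lay above it (0.37) in PRC1CKO. Without OHT PRC1CPM replicate 2, Rps12 (0.473), Rpl3 (0.394) and Rplp0 (0.372) lay above it (0.367) in PRC1CPM. Counts of Rpl10a were 3125, 2718 and 2226 untreated and 3058, 3465 and 3044 after OHT in PRC1CKO. In PRC1CPM they were 2933, 3077 and 2327 untreated and 3760, 3134 and 3369 after OHT, so that every OHT library exceeded every untreated one. This was the only member whose groups did not overlap in either OHT comparison on the deposited scale, where 18.7% of all genes were higher and 3.7% lower without overlap in PRC1CPM, and 22.1% and 8.52% in PRC1CKO. The differences were 0.26 ± 0.20 and 0.31 ± 0.20 (SE, limma adjusted p = 0.48 and 0.44).

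Rps12, a small-subunit protein and host of snoRNA genes, had counts of 2531, 2159 and 2034 untreated and 2461, 2677 and 2614 after OHT in PRC1CKO, a difference of 0.21, or 0.30 without untreated replicate 1. In PRC1CPM it was at 2524, 2097 and 2102 untreated and 3056, 2116 and 3143 after OHT, a difference of 0.29, or 0.47 without OHT replicate 2. The groups overlapped in both lines, and the limma adjusted p was 0.60 and 0.49. Rpl36a, an X-linked large-subunit gene, was among the 3 highest in PRC1CKO, at 0.25, and stood at 0.08 in PRC1CPM. Rpl3, which reaches towards the peptidyl transferase centre, was among the 3 highest in PRC1CPM, at 0.26 (0.39 without OHT replicate 2), and stood at 0.19 in PRC1CKO (0.31 without untreated replicate 1).

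Across the 66 members the differences in the 2 lines, which share no library, had a Pearson's r of 0.75 and a Spearman's rho of 0.72. These values run across genes that share libraries, depth and factors within each line, and all genes tested had an r of 0.88. Both differences were below 0 for 38 members and above 0 for 15.

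The P stalk recruits translation factors to the ribosome and is built from Rplp0, Rplp1 and Rplp2. Its base, Rplp0, had counts of 6571, 3629 and 3741 untreated and 5524, 4879 and 5074 after OHT in PRC1CKO, and of 6431, 4439 and 5421 untreated and 6603, 4768 and 7316 after OHT in PRC1CPM. It differed by 0.21 and 0.19, whereas Rplp1 differed by -0.20 and -0.14 and Rplp2 by -0.10 and -0.08, none of which passed. Without untreated PRC1CKO replicate 1 the PRC1CKO values were 0.48 for Rplp0 (limma adjusted p = 0.0778), 0.03 for Rplp1 and 0.13 for Rplp2, so that the last pair changed sign. Without OHT PRC1CPM replicate 2 the PRC1CPM values were 0.37, 0.03 and 0.12 in the same order, and the last pair again changed sign. Rpl5 and Rpl11, which with 5S ribosomal RNA form the particle that restrains Mdm2 when ribosome assembly fails, were at -0.10 and 0.11 in PRC1CKO and at -0.05 and 0.03 in PRC1CPM. Without the libraries that stood apart, they were at 0.06 and 0.27 in PRC1CKO (without untreated replicate 1) and at 0.10 and 0.20 in PRC1CPM (without OHT replicate 2). The other X-linked members were Rpl10, at -0.03 and 0.05, Rpl39, at -0.20 and -0.16, and Rps4x, at -0.23 and -0.04. With the same library left out of each line these were 0.05 and 0.13 for Rpl10, 0.05 and -0.0043 for Rpl39, and -0.0087 and 0.12 for Rps4x. Rps27a, made as a fusion with ubiquitin, was at 0.04 and -0.07, and Rpl38, a protein known for its part in translating homeobox transcripts, at 0.05 and -0.04. Rps6, the protein phosphorylated downstream of mTOR, was at 0.20 and 0.11, and Rpsa, the laminin receptor protein of the small subunit, at -0.20 and -0.18. With the same libraries left out, Rps27a was at 0.17 and 0.09, Rpl38 at 0.17 and 0.14, Rps6 at 0.38 and 0.25, and Rpsa at 0.0023 and -0.05. For the 9 genes linked to Diamond-Blackfan anaemia the median was -0.09 in PRC1CKO and -0.05 in PRC1CPM, and for the 6 genes of the exit tunnel it was -0.15 and -0.12, with no call in either list. The medians were 0.10 and 0.11 for the former and 0.10 and 0.05 for the latter without these libraries.

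The 40S and 60S members gave close values. The 27 members of the 40S subunit had a median of -0.09 in PRC1CKO and -0.08 in PRC1CPM, and the 39 members of the 60S subunit had medians of -0.03 and -0.05. Members that host snoRNAs (27 genes, 55 snoRNAs) were at -0.07 and -0.08, and the other 39 members at -0.09 and -0.04. By promoter letters, the 27 members with a run of at least 10 bases had medians of -0.04 and -0.04, and the 19 with shorter runs -0.06 and -0.03. All these medians turned above 0 with 1 library left out. Without untreated PRC1CKO replicate 1 they were 0.09 (40S), 0.14 (60S), 0.12 (snoRNA hosts), 0.10 (other members), 0.15 (longer runs) and 0.10 (shorter runs) in PRC1CKO. Without OHT replicate 2 they were 0.09, 0.11, 0.07, 0.12, 0.12 and 0.13 in PRC1CPM, in the same order.

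Relative to the median of all genes, a scale on which the spike-in factor of a library cancels, most members lay lower after OHT in both lines. The median member lay 0.20 below the median log2 difference of all genes in PRC1CKO (-0.20) and 0.17 below it in PRC1CPM (-0.17). Below that median were 58 of 66 members in PRC1CKO (87.9%) and 60 of 66 in PRC1CPM (90.9%), where 50% of all genes lie by construction. In 57 members this held in both lines, against 41.6% of all genes. The median of all genes was itself at 0.12 and 0.10, and 16.5% and 13.1% of genes were called higher, so the reference is not a set without change.

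Within each library, the median member stood 2.27, 2.19 and 2.15 log2 units above the median gene in untreated PRC1CKO and 1.88, 1.98 and 1.98 after OHT. All OHT libraries lay under all untreated ones. In PRC1CPM the values were 2.18, 2.24 and 2.23 untreated and 1.88, 1.94 and 2.18 after OHT, where replicate 3 lay within the untreated range and the groups overlapped. Deviations of same-numbered untreated and OHT libraries of PRC1CPM had r of 0.255, 0.438 and 0.246 across genes, and within each number the OHT library had the lower value. Group means were 2.20 ± 0.06 and 1.95 ± 0.06 in PRC1CKO and 2.22 ± 0.03 and 2.00 ± 0.16 in PRC1CPM (SD, n = 3 each).

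**Figure D4:**
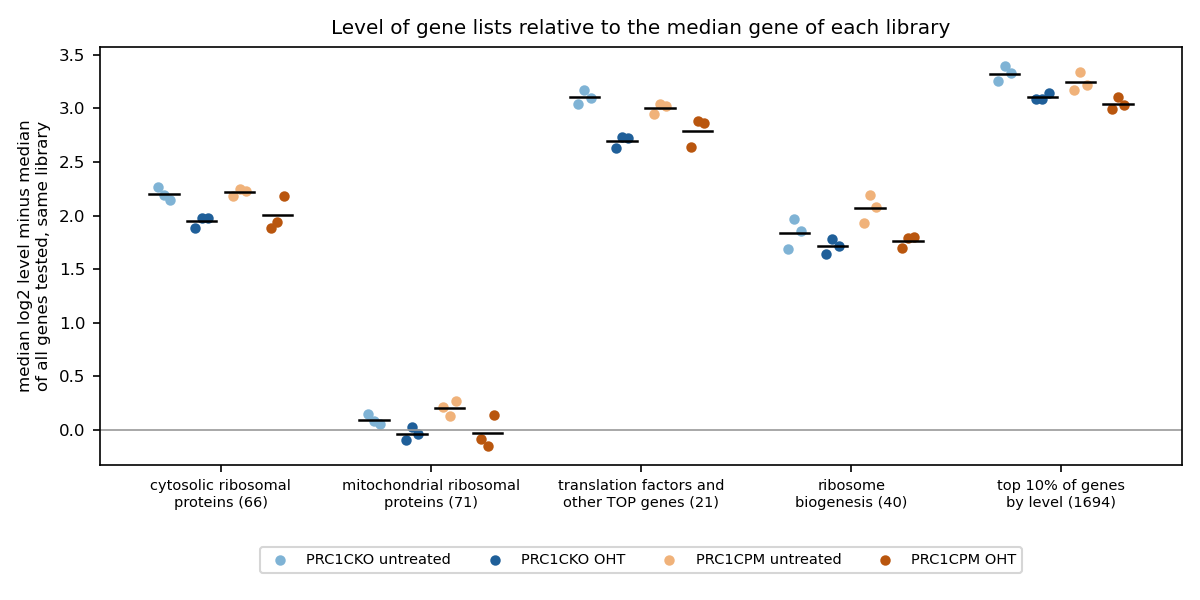
Median log2 level of 5 gene lists minus the median of all genes tested in the same library (vertical axis, log2 units); points are libraries, bars are means of 3, and the number of genes stands in brackets. Ribosomal protein genes go from 2.20 to 1.95 in PRC1CKO and from 2.22 to 2.00 in PRC1CPM, and the top 10% of genes by level also shifts down, from 3.32 to 3.10 and from 3.24 to 3.04.

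With every library centred on its median gene, the standard error of a member had a median of 0.10. The median difference of all genes was -0.11 in PRC1CKO and -0.09 in PRC1CPM on this scale, against 0.12 and 0.10 as deposited, so part of each centred difference is this shift. No member was called with the fold limit. The counts without it were added after the data were seen. At a limma adjusted p under 0.05 with no fold limit, 38 members were lower in PRC1CKO (57.6%, against 25.7% of all genes) and none was higher, against 17.9%. In PRC1CPM 29 were lower (43.9%, against 18.9% of all genes) and none was higher, against 15.3%. Highly expressed genes as a whole shifted the same way, with 42.6% of the top 10% by level lower in PRC1CKO and 34.9% in PRC1CPM. With TMM factors the members' counts were 26 lower (39.4%, against 17.1%) and 12 lower (18.2%, against 11.8%).

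On the centred scale Rpl4 was lower by 0.53 in PRC1CKO (-0.53 ± 0.09, SE, limma adjusted p = 0.00043) and by 0.31 in PRC1CPM (-0.31, limma adjusted p = 0.020). Relative to the median gene it stood at 5.26, 5.15 and 5.26 untreated and at 4.64, 4.82 and 4.62 after OHT in PRC1CKO, and at 5.20, 5.26 and 5.29 untreated and at 4.83, 4.97 and 5.01 after OHT in PRC1CPM. Neither line's groups overlapped. Rps21 was at -0.51 (limma adjusted p = 0.0017) and -0.48 (limma adjusted p = 0.0036), again without overlap. Members without overlap on this scale numbered 47 in PRC1CKO (71.2%) and 40 in PRC1CPM (60.6%), all lower, where 33.2% and 25.9% of all genes were lower and 21.4% and 18.7% higher without overlap.

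Rplp0, Rps12 and Rpl10a had centred differences near 0. Rplp0 stood at 3.47, 3.22 and 3.19 untreated and at 3.27, 3.29 and 3.27 after OHT in PRC1CKO, with a centred difference of -0.02 (limma adjusted p = 0.92). In PRC1CPM its centred difference was 0.01 (limma adjusted p = 0.97). Rps12 was at -0.01 and 0.10, and Rpl10a at 0.04 and 0.12, none of which passed.

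Related gene groups were read in the same way, from lists chosen with earlier results of these data known, with calls by limma on the deposited scale. The 71 mitochondrial ribosomal proteins, which serve the organelle's own ribosome, had no call in either line and medians of 0.00 and -0.04, or -0.11 and -0.14 relative to all genes. Of 21 translation factors and other genes known for TOP transcripts, 1 fell in PRC1CKO (Vim, an intermediate filament gene, by 0.95, limma adjusted p = 0.017, or by 0.51, limma adjusted p = 0.227, without untreated replicate 1) and none in PRC1CPM, with relative medians of -0.29 and -0.14. Ribosome biogenesis factors (40 tested) and genes of RNA polymerase I transcription (19 tested) had no call, with medians of 0.13 and 0.18 in PRC1CKO and of -0.06 and 0.06 in PRC1CPM. The 8 snoRNA host genes that encode no ribosomal protein had medians of -0.02 and 0.00 and no call. Among 22 genes of mTOR and Myc regulation, Mycn, a Myc family factor that promotes ribosome production, fell by 1.21 in PRC1CKO (limma adjusted p = 2.9e-05) and by 0.85 in PRC1CPM (limma adjusted p = 0.0047), and no other was called. Myc itself was at -0.43 and 0.20 and did not pass. Between the lines, Larp1, which binds TOP transcripts, was higher in untreated PRC1CPM by 0.74 (limma adjusted p = 0.0259), and Vim was higher in OHT-treated PRC1CPM by 1.13 (limma adjusted p = 0.0344). Larp1 did not pass with any of 4 libraries left out (0.66 to 0.74), nor Vim with any of 3 (0.72 to 1.08). Vim passed between untreated lines without PRC1CKO replicate 1 (0.96) or PRC1CPM replicate 2 (0.81), and Larp1 after OHT without PRC1CPM replicate 2 (0.81). Without untreated PRC1CKO replicate 1, 5 biogenesis factors (Npm1, Nhp2, Pes1, Mybbp1a and Ftsj3), 4 mitochondrial ribosomal proteins (Mrpl12, Mrpl38, Mrpl45 and Mrps23) and Snhg3 passed as higher in untreated PRC1CPM (0.62 to 0.95). In that fit 8.81% of all genes were called higher, and the median of all genes was 0.30. Without OHT PRC1CPM replicate 2, Npm1 (0.81) and Dkc1 (0.97) passed as higher in OHT-treated PRC1CPM, where 285 of 16940 genes were called higher. Without untreated PRC1CKO replicate 1 the PRC1CKO medians were 0.22 for mitochondrial ribosomal proteins, 0.28 for biogenesis factors, 0.32 for RNA polymerase I genes and 0.20 for snoRNA hosts, beside 0.29 for all genes. Mrpl20 (0.66) and Taf1c (0.70) were then called, where 3729 of 16940 genes were called higher. Without OHT PRC1CPM replicate 2 the PRC1CPM medians of these 4 lists were 0.16, 0.08, 0.24 and 0.20, beside 0.25 for all genes, so that the first pair turned above 0. With another library left out, Dkc1 (-0.75) and Mnt (-0.72) passed in PRC1CKO and Eif3a (-0.65) and Tsc1 (-0.74) in PRC1CPM.

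Genes commonly used as references had a wider range than the ribosomal protein genes. Of 23 tested, B2m, a subunit of major histocompatibility class I molecules, rose by 1.00 in PRC1CKO (limma adjusted p = 0.0010) and by 0.68 in PRC1CPM (limma adjusted p = 0.044). The glycolytic gene Pgk1 fell by 0.89 in PRC1CKO (limma adjusted p = 0.029). B2m did not pass in PRC1CPM with any of 4 libraries left out (0.52 to 0.76), nor Pgk1 in PRC1CKO with any of 4 (-0.86 to -0.54). Further calls came with a library left out. In PRC1CKO they were Polr2a (0.68) and Reep5 (0.62) without untreated replicate 1, Gapdh (-0.68) and Ldha (-1.0) without untreated replicate 2, and Ldha (-0.90) without OHT replicate 1. In PRC1CPM they were Pgk1 (-0.92) without untreated replicate 2, and Polr2a without untreated replicate 1 (0.63) or OHT replicate 2 (0.75). Between the lines Gusb, Tfrc and Ldha passed in this way (0.75 to 0.96). Their range was -0.89 to 1.00 in PRC1CKO, against -0.31 to 0.26 for the 66 ribosomal protein genes, and -0.54 to 1.22 against -0.10 to 0.48 without untreated replicate 1. The difference in spread was not tested. Ribosomal protein genes and paralogs that the naming rule leaves out (10 tested, among them Fau and Rps3a1) had no call by limma or edgeR, and DESeq2 called 1, Rpl39l, in each line. Rpl39l, a paralog of Rpl39, was the lowest by limma at -0.65 and -0.67 (limma adjusted p = 0.067 and 0.073).

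The second question was whether the lines differed from each other. No member was called between untreated PRC1CPM and untreated PRC1CKO, where 2.69% of all genes were, or between the OHT-treated lines, where 1.47% were. At an unadjusted p under 0.05, limma, edgeR and DESeq2 gave 3, 3 and 4 members untreated, against 14.1%, 13.4% and 13.8% of all genes, and 3 members each after OHT, against 11%, 12.2% and 12.4%. The median member was at 0.11 untreated and 0.15 after OHT, beside 0.12 and 0.10 for all genes. Without the genomic DNA correction the medians were -0.17 and 0.32, and all genes were at -0.16 and 0.27. With a library left out, the median after OHT ran from 0.05 to 0.32. Without untreated PRC1CKO replicate 1 the untreated median was 0.32, all genes were at 0.30, and 4 members (Rpl23, Rpl26, Rpl32 and Rps26) were called higher in PRC1CPM, 6.06% of members against 8.81% of all genes. The comparisons share libraries with those above, and each line is a single clone.

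Rpl26, a large-subunit protein that also binds p53 messenger RNA, had the highest difference between lines. Its counts after OHT were 1932, 1814 and 1818 in PRC1CKO and 3254, 2088 and 2893 in PRC1CPM, without overlap, and untreated they were 2917, 1613 and 1741 and 3274, 2734 and 2822, with overlap. The differences were 0.54 untreated and 0.54 after OHT (limma adjusted p = 0.21 and 0.28), and 0.81 untreated without PRC1CKO replicate 1 (limma adjusted p = 0.0097). Rpl31, near the exit of the peptide tunnel, was the lowest, with counts of 1435, 1507 and 1716 in PRC1CKO and 1417, 866 and 1306 in PRC1CPM after OHT, and differences of -0.38 and -0.40 (limma adjusted p = 0.50 and 0.56). These were -0.22 untreated without PRC1CKO replicate 1 and -0.19 after OHT without PRC1CPM replicate 2. Between the OHT-treated lines 4 members were higher without overlap on the deposited scale, Rpl26 among them, and 1 was lower, Rpl31. The share of all genes is not given for this overlap, so nothing is read from it. With libraries centred, Rpl26 (0.41 and 0.45, limma adjusted p = 0.0099 and 0.0076) and Rpl31 (-0.51 and -0.50, limma adjusted p = 0.0096 and 0.013) passed in both comparisons. In all, 2 members were higher and 2 lower untreated, and 2 higher and 1 lower after OHT, on that scale, with 6.27% of all genes higher and 4.7% lower untreated and 5.3% higher and 3.54% lower after OHT.

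The third question, whether the response to OHT differed between lines, was tested as an interaction. No member was called by limma, where 0.0236% of all genes were. At an unadjusted p under 0.05 the count was 0 of 66 with limma, edgeR and DESeq2, against 2.93%, 3.09% and 3.21% of all genes. The median member was at 0.02 and the median of all genes at -0.02. The intervals were wide, from -1.10 to 0.81 at their outermost bounds, and none lay within 1.5-fold either way. With libraries centred, 64 of the 66 intervals did.

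Levels differed far more between members than between conditions. Per kilobase of exon, averaged over all 12 libraries, Rpl8 was the highest at 12641 ± 2868 normalised read counts (SD, n = 12), and Rpl4 was also among the 3 highest at 11916 ± 2348. The lowest were Rpl29 at 373 ± 57.3, Rpl21 at 764 ± 163 and Rps6 at 771 ± 110. These SDs include scatter between groups and libraries that members share, so they do not measure the spread of a difference between members. The order of members with close levels was not tested. Highest and lowest differed 33.9-fold, and the median member was at 3076. Since reads over introns are included, these are levels of gene bodies scaled by exon length.

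Members also differed in how much of their transcript is shared with other places in the genome. The deposited counts came from reads that aligned to a single place, and every 80-base window of a member's spliced transcript was looked up elsewhere in the reference genome of the same build. A median of 57.6% of a member's windows occurred elsewhere as exact copies, over 50% in 37 members and over 90% in 10. The share was 0% in Rps3, 0.868% in Rpl22, 4.34% in Rpl8 and 8.49% in Rpl4, and reached 99.4% in Rpl11 and 100% in Rpl28. Across the 66 members, the level per kilobase and this share had a Spearman's rho of -0.39. For members with a high share, the counts may come largely from the remaining stretches, introns among them, and are uncertain as levels of the messenger RNA. The reads were paired, and the lookup did not consider pairs.

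The OHT differences also varied with the share. The 7 members with under 10% of windows elsewhere (among them Rpl4, Rpl8, Rpl22 and Rps3) had medians of -0.22 in PRC1CKO and -0.13 in PRC1CPM, or -0.34 and -0.23 relative to all genes. The 22 members with 10 to 50% were at -0.13 and -0.09, and the 37 with over 50% at 0.01 and -0.04. Without untreated PRC1CKO replicate 1 the 3 medians were 0.04, 0.08 and 0.18 in PRC1CKO, and without OHT PRC1CPM replicate 2 they were 0.01, 0.07 and 0.13 in PRC1CPM. Spearman's rho between share and log2 difference was 0.56 in PRC1CKO and 0.39 in PRC1CPM across the 66 members, which share libraries and factors, and 0.48 and 0.39 with the same libraries left out. With the mean log2 level rho was -0.45 and -0.17, and share and level were not separated. Rpl10a (84.6%), Rps12 (97.9%), Rpl3 (88.5%) and Rpl36a (92.2%), the members with the highest differences with all libraries kept, lie at the upper end. Rplp0 (31.1%) and Rps28 (99.2%, at -0.10 and -0.29) stand at other places. Rps3, an entry-channel protein with no shared window, was at -0.19 and -0.16, or at 0.06 and 0.0069 with those libraries left out. The part of shared sequence in these differences was not tested.

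**Figure D5:**
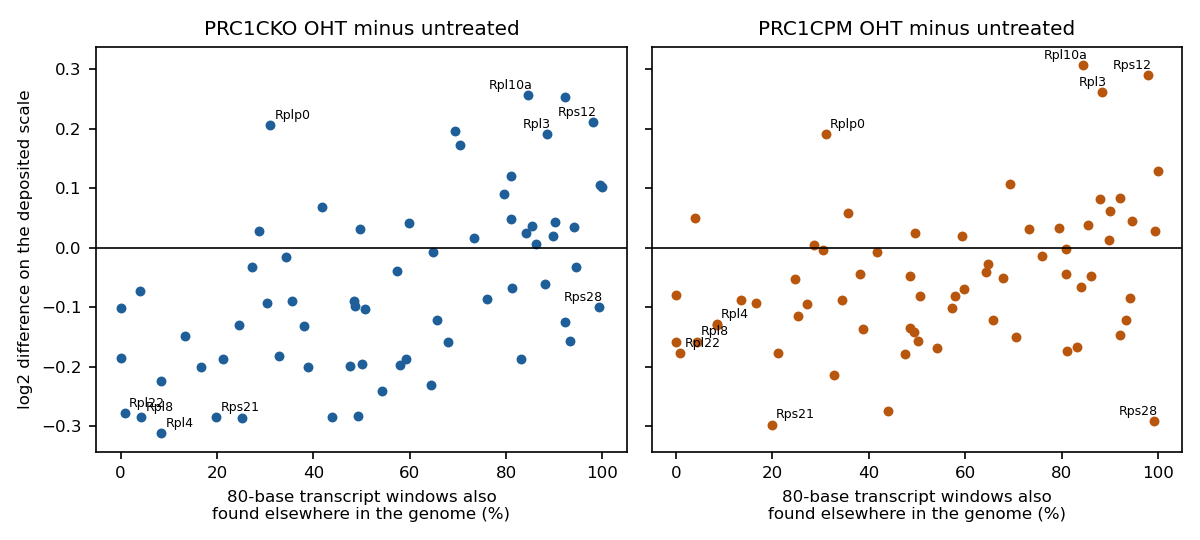
Share of 80-base transcript windows found elsewhere in the genome (horizontal axis, %) against the log2 difference after OHT on the deposited scale (vertical axis) for the 66 ribosomal protein genes, in PRC1CKO (left) and PRC1CPM (right). The 7 members with under 10% lie below 0 in PRC1CKO and reach up to 0.05 in PRC1CPM, and Rpl10a, Rps12 and Rpl3 lie at the upper right.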

How the data were processed

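RNA from 12 libraries was analysed, and of the matched genomic DNA samples only the read totals reported by the study were used. For the setting without the genomic DNA correction, each deposited factor was multiplied by a ratio of these totals. This is a back-calculation that was not checked against factors from the authors. The deposited values are a normalised signal: gene-body read counts that the authors divided by factors from Drosophila reads, corrected with genomic DNA sequencing. Per the study's methods, ribosomal DNA reads were removed, the rest were aligned to mm10 and dm6 with STAR and then Bowtie 2, and uniquely aligned, deduplicated reads were kept. Reads from sequence shared with pseudogenes may thus be lost, which was not tested. The reads were paired, and the lookup of single windows did not consider the second read of a pair. The authors' columns of fold changes and adjusted p-values were not used. Whole reads were recovered for 100% of values (tolerance 0.02).

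Log2 values with a pseudocount of 1 entered limma 3.58.1 (R 4.3.3; 1 mean per group, empirical Bayes with trend, Benjamini-Hochberg adjustment over 16940 rows). Fold changes are on this scale. edgeR 4.0.16 (quasi-likelihood) and DESeq2 1.42.0 on the recovered reads, TMM factors and libraries centred on their median gene were alternatives. The fit was also run on simulated counts. These lacked the shared spread between libraries on the spike-in scale, so nothing is read from that run. edgeR called 3251 genes in PRC1CKO and 2498 in PRC1CPM. Libraries of a group differed beyond sampling noise (chi-square per degree of freedom 7.57 to 25.7). Members and lists were chosen with earlier results of these data known. Genes were named if called, if among the 3 highest or lowest in an OHT comparison or in level per kilobase, by role, or as markers; Rpl41, a named role, was not analysed here. Those named for pyrimidine runs, shared windows or differences between lines were chosen after their values were seen. Exons and promoters came from RefSeq on GRCm38 (mm10), with exons for 20406 of 20633 rows. Values of single genes that are withheld are not reported here. Shared replicate numbers come from the sample titles. The deviations of same-numbered libraries exceeded r = 0.1 in every pair of the PRC1CPM comparison and of both line comparisons, and in all but 1 pair of the PRC1CKO comparison.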

Additional observations from a re-analysis of the deposited data

How the results depend on the processing

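With the fold limit of 1.5, no member was called in either OHT comparison under any setting run. With libraries centred and no fold limit, a choice made after the data were seen, 38 members passed in PRC1CKO, 29 in PRC1CPM, 4 between untreated lines and 3 between OHT-treated lines. With TMM factors and no fold limit, also chosen after the data were seen, the counts were 26, 12, 5 and 4. On that scale 17.1% of all genes were lower in PRC1CKO and 11.8% in PRC1CPM. The TMM counts between lines are given without a share of all genes, so nothing is read from them. Leaving out a library gave 0 calls in every comparison except between untreated lines, where the count ran from 0 to 4, with 4 without untreated PRC1CKO replicate 1.

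The median relative to all genes ran from -0.22 to -0.17 in PRC1CKO and from -0.23 to -0.12 in PRC1CPM when a library was left out, and it was -0.34 in PRC1CKO over the members with under 10% of windows elsewhere. The spike-in median changed sign, running from -0.19 to 0.10 in PRC1CKO, from -0.16 to 0.10 in PRC1CPM and from -0.19 to 0.19 for the interaction. Without the correction from genomic DNA sequencing it was -0.24 in PRC1CKO, 0.23 in PRC1CPM, -0.17 and 0.32 between untreated and OHT-treated lines, and 0.47 for the interaction.

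Among the members named for their log2 difference, centring turned Rpl3 (-0.031) and Rps12 (-0.011) in PRC1CKO and Rpl36a (-0.10) in PRC1CPM, and TMM factors, with or without the replicate block, turned Rpl36a (-0.023) in PRC1CPM. Members named by role also turned with centring, among them Rplp0 (-0.016), Rps6 (-0.026) and Rpl11 (-0.12) in PRC1CKO and Rpl10 (-0.14), Rpl11 (-0.16) and Rps6 (-0.079) in PRC1CPM. Without the genomic DNA correction, Rpl4 (0.17), Rps14 (0.18), Rps25 (0.022) and Rps28 (0.0049) turned in PRC1CPM, as did every member named for its role or level that stood below 0. With a library left out, Rpl36a ran from -0.028 to 0.48 and Rps28 from -0.26 to 0.17 in PRC1CKO, and Rpl36a from -0.069 to 0.24, Rpl4 from -0.23 to 0.012 and Rps14 from -0.21 to 0.037 in PRC1CPM. None of the members in this paragraph passed on the deposited scale. The causes were not tested.

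Replicate numbers are shared across groups. Deviations of same-numbered libraries had a mean r of 0.205 (18 pairs, lowest 0.0988) and others -0.102 (36 pairs), so 1 pair, untreated and OHT PRC1CKO replicates 2, did not exceed 0.1. With the replicate block, 0 members were called in each of the 5 comparisons. Every replicate number occurs in every group, so the block cannot move the relative medians of -0.20 in PRC1CKO and -0.17 in PRC1CPM. Spread between libraries on the spike-in scale limits the precision of single members, and each line is 1 clone.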
